A study of Mus musculus and Homo sapiens with 43 samples.

Results

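Gata4, Gata6, Sox7, Sox17, Hnf4a and Hhex are transcription factor genes that mark the endoderm made by mouse embryonic stem cells. They were chosen by name, with earlier results of these data known, as were the marker lists below. Counts of called factors or markers are therefore descriptions. The rows of these 6 genes were taken from the 35245 genes of a first expression table and the 32231 of a second. All 6 were listed in both tables and all passed the filter on low values in both. RNA was sequenced from E14, a mouse embryonic stem cell (ESC) line, from the embryoid bodies (EBs) that such cells form as floating aggregates, and from cells labelled neural progenitors (NPC). The study asked how canonical Polycomb repressive complex 1 acts during this differentiation, and it cut the genes of the subunits Pcgf2 and Phc1 with CRISPR/Cas9. There were 12 groups of 2 libraries each.

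The first table held unedited cells (WT) and Pcgf2 KO cells at 4 stages, namely ESC, EB at day 3, EB at day 8 and NPC. The second came from Phc1 KO and from Phc1-SAM KO lines, the latter named for the SAM domain through which Phc1 polymerises, as ESC and NPC only. LIF, 1 µM of the MEK inhibitor PD0325901 and 3 µM of the GSK3 inhibitor Chir99021 kept ESC undifferentiated, and EBs were grown without them. NPC cultures received 5 µM retinoic acid from day 4 to day 8. The labels thus do not make NPC a later stage than EB day 8. Changes given from EB day 8 to NPC compare separate cultures, without and with retinoic acid, and are not a time course. The labels tie no library to a clone, so the p-values below measure only the spread between the 2 libraries of a group, which may be technical. That spread was pooled over all groups of a table, so the SE of a factor does not reflect the compared groups alone. Levels are in TPM, the abundance of a transcript corrected for its length and scaled to a common total. The number of reads behind a value is unknown.

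Gata4 and Gata6 are zinc-finger factors that switch stem cells to the primitive endoderm fate. Sox17 and Sox7 are related HMG-box factors that act after them in the same lineage, and both are also used by blood vessel endothelium. Hnf4a is a nuclear receptor that drives the secretory programme of visceral endoderm and liver, and Hhex is a homeobox factor of anterior visceral endoderm, liver and vessels. Gata4 and Gata6 also act in heart mesoderm. Polycomb complexes are known for keeping such lineage regulators silent in stem cells, mostly at promoters rich in CG dinucleotides.

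Sox17 lies on chromosome 1 (4490928 to 4497426), Hnf4a on chromosome 2 (163506811 to 163572907) and Hhex on chromosome 19 (37434841 to 37440731), in the GRCm38.p6 assembly annotated by RefSeq. Gata4 (63198914 to 63271712) and Sox7 (63943706 to 63950732) share chromosome 14, with 671993 bases and 6 protein-coding genes between them. RefSeq promoter windows were matched for 2 of the 6 factors, Hnf4a and Hhex, the pair of factors that shared a course across stages below. They are shown as the 250 bases before each annotated start, 5′ to 3′ on the plus strand, with every CG dinucleotide in capitals. The annotated start used for the upstream Hnf4a window lies inside the gene span given above, so that window runs past 163506811. The Hnf4a windows are chr2:163506607-163506856 (upstream start) and chr2:163546905-163547154 (downstream start), and the Hhex window is chr19:37434591-37434840.
Hnf4a, upstream start: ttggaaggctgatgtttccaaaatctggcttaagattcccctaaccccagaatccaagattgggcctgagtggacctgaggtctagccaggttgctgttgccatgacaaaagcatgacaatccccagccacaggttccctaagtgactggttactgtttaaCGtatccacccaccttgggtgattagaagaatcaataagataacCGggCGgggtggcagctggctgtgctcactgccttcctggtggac
Hnf4a, downstream start: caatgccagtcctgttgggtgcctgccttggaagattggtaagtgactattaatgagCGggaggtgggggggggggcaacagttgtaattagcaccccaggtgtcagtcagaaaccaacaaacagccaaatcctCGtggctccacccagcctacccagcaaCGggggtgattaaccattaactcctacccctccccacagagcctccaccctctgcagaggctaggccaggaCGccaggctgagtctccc
Hhex: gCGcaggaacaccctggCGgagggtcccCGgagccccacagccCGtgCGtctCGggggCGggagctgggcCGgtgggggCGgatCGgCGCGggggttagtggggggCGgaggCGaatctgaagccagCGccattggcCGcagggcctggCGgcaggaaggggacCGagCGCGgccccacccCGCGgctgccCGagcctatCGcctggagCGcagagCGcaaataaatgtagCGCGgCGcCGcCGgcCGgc

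The Hhex window held 32 CG dinucleotides, more than 95.4% of the 32851 windows of the same length, whose median was 6. The Hnf4a windows held 3 at the upstream start and 4 at the downstream start. The letters GATAA, the core of a GATA factor motif, were searched on both strands and occurred in the upstream Hnf4a window but in neither of the others, and 22.6% of all windows held them. ACAAT, the core of a SOX motif, was found in the upstream Hnf4a window alone among the 3 shown, and 27.7% of all windows held it. The letters GTTAAT, also searched on both strands, occurred 2 times in the downstream Hnf4a window and in neither of the others. Of all windows, 6.43% held them. These matches are descriptions of the letters, and the TPM values do not say which Hnf4a start was used.

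Several features of the libraries bear on the comparisons below. Genes at 1 TPM or more numbered 13131 to 15374 per library in the first table and 13469 to 14550 in the second. The Y-linked gene Eif2s3y stood between 0.422 and 2.78 TPM in the libraries labelled WT at ESC, EB day 3 and NPC, but at 50.4 and 64.7 TPM in those labelled WT at EB day 8. All 8 libraries labelled Pcgf2 KO were between 45.7 and 76.1 TPM, so only at EB day 8 did WT and Pcgf2 KO libraries share this feature. A whole group cannot be left out of a comparison, and the part of this difference in any result was not tested. Pcgf2 transcript was not reduced in Pcgf2 KO libraries, at 144 to 284 TPM against 72.4 to 155 TPM in WT, so the gene-level values do not check the knock-out. Phc1 transcript was at 150 and 151 TPM in Phc1 KO ESC and at 109 and 106 TPM in Phc1 KO NPC, against 266 and 247 TPM and 103 and 111 TPM in Phc1-SAM KO, so it does not check those labels either. Eif2s3y also differed among the Phc1 lines, from 14 to 15.8 TPM in ESC and 30.7 to 31.8 TPM in NPC of Phc1 KO, and from 2.04 to 5.15 TPM and 34.7 to 36.6 TPM in Phc1-SAM KO. All 10 neural progenitor markers reached 1 TPM in both WT NPC libraries, whereas 4 of 10 did so in each Pcgf2 KO and Phc1 KO NPC library and 5 of 10 in each Phc1-SAM KO NPC library. WT and Pcgf2 KO below are the labels.

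**Figure D1:**
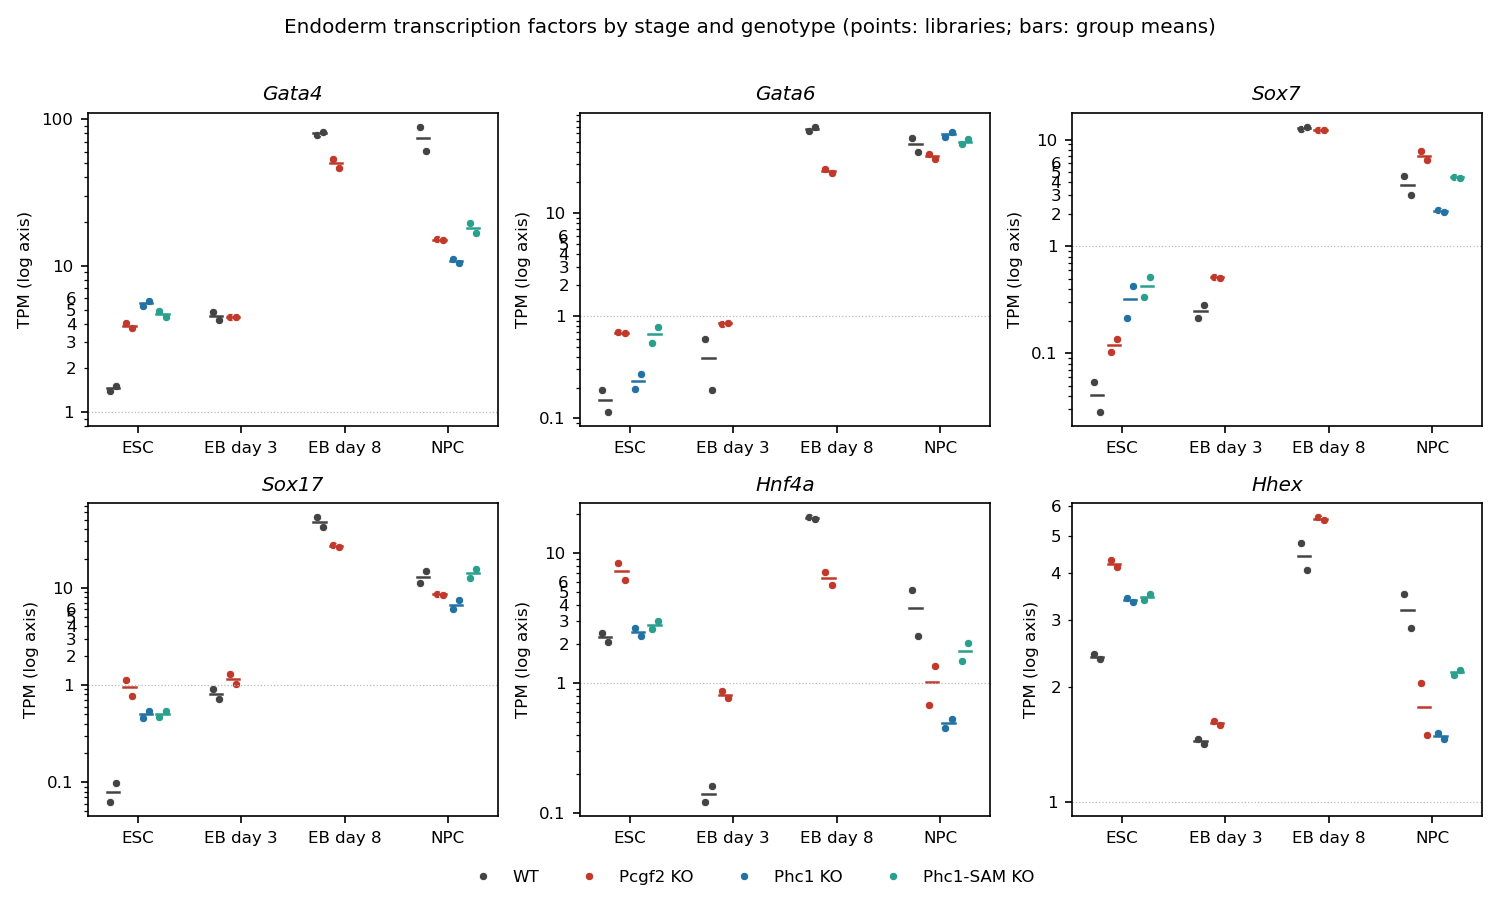
Level of each endoderm factor in TPM (log axis) by stage, with points for single libraries, bars for group means and colours for genotype. All 6 factors were called higher in WT at EB day 8 than at EB day 3, against 33.6% of all genes, and Hnf4a and Hhex were already present in ESC.

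In WT cells, the 6 factors were not switched on together. ESC held Hnf4a at 2.45 and 2.06 TPM, Hhex at 2.44 and 2.37 TPM, and Gata4 at 1.39 and 1.51 TPM. Gata6 was at 0.190 and 0.115 TPM, Sox17 at 0.0623 and 0.0976 TPM, and Sox7 at 0.0540 and 0.0282 TPM. The 2 factors of the later endoderm programme thus stood above 1 TPM in ESC with Gata4, and the other 3 below it.

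By EB day 3, the order had changed. Gata4 was at 4.83 and 4.27 TPM and had risen (log2 difference 1.18 ± 0.14, SE, on the log2(TPM + 1) scale used throughout; adjusted p = 2.61e-05, limma). Sox17 was at 0.905 and 0.725 TPM and had also risen (0.75 ± 0.15, adjusted p = 0.00154). Hnf4a had fallen to 0.121 and 0.16 TPM (-1.51 ± 0.26, adjusted p = 0.000452), and Hhex to 1.47 and 1.43 TPM (-0.48 ± 0.13, adjusted p = 0.00765). In such bulk RNA, fewer cells of a type and less RNA per cell cannot be told apart. Gata6, at 0.593 and 0.190 TPM, and Sox7, at 0.216 and 0.286 TPM, were not called (adjusted p = 0.212 and 0.151) but were called higher with a pseudocount of 0.1 (adjusted p = 0.0431 and 0.000617). Thus 2 of 6 factors were called higher and 2 lower, against 36.6% and 19.1% of all 17938 genes tested. Sox17, Gata6 and Sox7 were below 1 TPM in both groups and passed the filter only through other groups. Of the called genes, 65.7% were higher, against 46.9% after median-of-ratios scaling and 52% after quantile normalization.

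Between EB day 3 and EB day 8, all 6 factors rose in WT cells. Gata4 reached 77.7 and 82.2 TPM (log2 difference 3.87 ± 0.14, adjusted p = 1.17e-09). Gata6 reached 63.9 and 69.0 TPM (5.61 ± 0.17, adjusted p = 2.48e-10). Sox17 reached 53.2 and 42.1 TPM (4.74 ± 0.15, adjusted p = 5.44e-10). The fold of the means was 17.6 for Gata4, 169 for Gata6 and 58.5 for Sox17, so Gata6 started lowest of these 3 and ended close to Gata4. Sox7, at 12.5 and 13.0 TPM, and Hnf4a, at 19.0 and 18.3 TPM, rose by 3.46 ± 0.15 and 4.11 ± 0.26 on the log2 scale. Hhex moved least, to 4.79 and 4.08 TPM (1.15 ± 0.13, adjusted p = 1.16e-05). The count of 6 of 6 stands against 33.6% of all genes called higher and 24% lower, and the median difference was 3.99 for the factors and 0.07 for all genes. Higher genes made up 58.3% of all calls, and 52% or 45% after the median-of-ratios or quantile scaling.

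The products of endoderm rose over the same interval. Of 20 visceral endoderm products, 19 rose and none fell, with a median log2 difference of 5.17. Spink1, a secreted protease inhibitor, rose from a mean of 0.599 to 781 TPM, Apoc2, an apolipoprotein, from 0.113 to 302 TPM, and Ttr, the thyroxine carrier transthyretin, from 0.996 to 280 TPM. All 13 tested genes of the parietal endoderm and basement membrane list rose, Col4a2, a collagen IV chain, from 6.37 to 213 TPM. Markers of other lineages mostly rose too. Of 12 endothelial markers, 12 were called higher, and of 12 cardiac markers, 9 were called higher and 3 lower. Hand2, a heart and limb mesoderm factor, was at 139 TPM and the vascular receptor Kdr at 27.9 TPM. The part of those lineages in the rise of the factors was not tested. Both WT groups also differ in Eif2s3y, as given above.

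In WT NPC, Gata4 and Gata6 stood at 39.2 TPM or more in both libraries while the visceral endoderm products were low. Gata4 was at 88.0 and 61 TPM against 77.7 and 82.2 TPM at EB day 8, so the groups overlapped, and it was not called (-0.12 ± 0.14, adjusted p = 0.479). Its NPC libraries differed, and without NPC WT replicate 1 it was called lower (-0.39, adjusted p = 0.017) while without replicate 2 the difference turned to 0.14. Gata6 was at 54.8 and 39.2 TPM, below both EB day 8 libraries (-0.51 ± 0.17, adjusted p = 0.0203). Sox17, at 11.3 and 14.8 TPM, Sox7, at 4.53 and 3.01 TPM, and Hnf4a, at 5.23 and 2.32 TPM, were lower than at EB day 8 (log2 differences -1.79, -1.54 and -2.11, adjusted p = 1.77e-06, 3.98e-06 and 3.39e-05). Hhex was also lower, at 3.52 and 2.86 TPM (-0.38 ± 0.13, adjusted p = 0.0249). Every factor except Gata4, 5 of 6, was thus called lower, against 20.1% of all genes lower and 38.1% higher, and the median was -1.03 for the factors and 0.16 for all genes. The Gata6 and Hhex calls were lost without 2 of the 4 libraries each (largest adjusted p = 0.208 and 0.17), and 3 factors were called without NPC WT replicate 2. After median-of-ratios scaling Gata4 was also called lower (-0.37, adjusted p = 0.0452), with a pseudocount of 0.1 Gata6 was not called (adjusted p = 0.197), and in a fit of only the groups compared Hhex was not (adjusted p = 0.108). Of all calls, 65.4% were higher, and 47.8% or 52.4% after median-of-ratios or quantile scaling.

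Against that, 19 of 20 visceral endoderm products were lower in WT NPC than in WT EBs at day 8, with a median of -4.38. Their summed level was 2875 and 3119.8 TPM at EB day 8 and 86.4 and 96.5 TPM in NPC. Spink1 was at a mean of 0.227 TPM in NPC. The summed level of the 12 endothelial markers was 253 and 312 TPM in NPC and 274 and 285 TPM at EB day 8, and that of the 12 cardiac markers was 123 and 160 TPM against 240 and 241 TPM. Of 7 other GATA, GATA cofactor and SoxF genes, 4 were higher in NPC than at EB day 8, 2 were lower and 1 was not called. The GATA cofactor Zfpm2 (11.0 TPM) and Gata5 (8.52 TPM) were among the higher ones, by 1.45 and 1.07 on the log2 scale. Compared with ESC, WT NPC were higher in 4 of 6 factors, Gata4, Gata6, Sox7 and Sox17, against 53.4% of all genes higher and 21.6% lower, while Hnf4a and Hhex were not called (adjusted p = 0.115 and 0.0557). Without NPC WT replicate 2 each was called higher (0.94 and 0.41 on the log2 scale), and under quantile normalization Hhex was called lower (-0.46, adjusted p = 0.00541). The share of higher genes among all calls was 71.2%, and 49.3% or 49.8% after the scalings, which lower the median of all genes from 0.46 to near 0.

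In Pcgf2 KO ESC, 5 of 6 factors were higher than in WT ESC, against 24.9% of all genes called higher and 11% lower. Of the 5, Gata6 and Sox17 passed the filter of 1 TPM in at least 2 libraries only through groups other than ESC. A fit of only both ESC groups did not test them, and 3 factors were called in it. Gata4 was at 4.05 and 3.74 TPM against 1.39 and 1.51 TPM in WT, 2.68-fold of the mean (log2 difference 1.00 ± 0.14, adjusted p = 0.000236). Hnf4a was at 8.49 and 6.18 TPM against 2.45 and 2.06 TPM (1.34 ± 0.26, adjusted p = 0.00206). Sox17, at 1.14 and 0.776 TPM, was above the WT values of 0.0623 and 0.0976 TPM (0.85 ± 0.15, adjusted p = 0.0013). Hhex was at 4.31 and 4.15 TPM against 2.44 and 2.37 TPM (0.62 ± 0.13, adjusted p = 0.00292). Gata6 (0.690 and 0.683 TPM against 0.190 and 0.115 TPM) and Sox7 (0.102 and 0.136 TPM against 0.0540 and 0.0282 TPM) stayed below 1 TPM. Gata6 was called (0.55 ± 0.17, adjusted p = 0.0224) but lost the call without any of the 4 libraries (adjusted p = 0.0537 to 0.109) and under quantile normalization (adjusted p = 0.0762), as did Hhex under the latter (adjusted p = 0.06). Sox7 was not called (adjusted p = 0.648). The median difference was 0.74 for the factors and 0.10 for all genes, and 69.3% of all calls were higher, against 48.2% under either scaling.

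The products of endoderm were mostly not called in Pcgf2 KO ESC. Of 20 visceral endoderm products, 3 were called higher and 17 were not called, with a median of 0.00. Their summed level was 34.2 and 31.3 TPM against 24.5 and 20.3 TPM in WT, without overlap, and 5 of the 20 were listed at 0 in each library of both genotypes. Apom, an apolipoprotein, was at a mean of 5.31 TPM against 1.79 TPM. The parietal and basement membrane list summed to 433 and 448 TPM against 359 and 342 TPM and had 5 of 13 genes higher and 2 lower, with the laminin chain Lama1 at 20.6 TPM against 4.41 TPM (2.00 ± 0.21, adjusted p = 2.59e-05). Among the other endoderm regulators 4 of 13 were higher and 1 was lower, the latter being Eomes, a T-box factor (11.5 against 17.3 TPM). Naive pluripotency markers summed to 3409 and 3485 TPM in the knock-out and to 3487 and 3552 TPM in WT. Of these 10 markers, 4 were called higher, 1 lower and 5 were not called, with a median of 0.31 against 0.10 for all genes. Cardiac markers were higher for 5 of 12 and endothelial markers for 4 of 12, with none lower in either list. The cardiac list summed to 57.1 and 56.9 TPM against 40.2 and 36.1 TPM in WT, with Tnni1, a slow troponin I, at 10.3 against 0.918 TPM. The endothelial list summed to 173 and 177 TPM against 104 and 117 TPM, with Eng, the receptor endoglin, at 68.3 against 17.3 TPM. The part of these lineages in the higher factor levels was not tested.

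At EB day 3, none of the 6 factors was called between Pcgf2 KO and WT by limma, against 16.7% of all genes called higher and 31.9% lower, and 2 had an unadjusted p under 0.05. Gata4 was at 4.46 and 4.45 TPM in the knock-out and at 4.83 and 4.27 TPM in WT, so the groups overlapped. Hnf4a was at 0.865 and 0.761 TPM against 0.121 and 0.16 TPM (0.67 ± 0.26, adjusted p = 0.055). Gata6 was at 0.839 and 0.852 TPM against 0.593 and 0.190 TPM (0.42 ± 0.17, adjusted p = 0.054), and it was called without EB day 3 WT replicate 1 (0.63, adjusted p = 0.0155). With a pseudocount of 0.1, which weighs low values more, Gata6, Sox7 and Hnf4a were called higher (adjusted p = 0.0173, 0.015 and 0.00121). These factors were below 1 TPM in both groups and passed the filter only through other groups. Of all calls, 34.3% were higher, against 48% after median-of-ratios scaling.

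The Pcgf2 KO difference shrank from ESC to EB day 3 for 3 factors, by a contrast of the same fit: Gata4 (-1.02 ± 0.20, adjusted p = 0.00203), Sox17 (-0.60 ± 0.22, adjusted p = 0.0482) and Hhex (-0.52 ± 0.18, adjusted p = 0.0388). This count of 3 of 6 lower stands against 31.1% of all genes lower and 8.54% higher. The Sox17 call was lost without 7 of 8 libraries and the Hhex call without any (largest adjusted p = 0.145 and 0.0971). Lower genes made up the larger share of all calls, with 21.6% higher, against 48.5% and 45.3% under the scalings. Within Pcgf2 KO cells, Hnf4a and Hhex fell from ESC to EB day 3 (-2.19 ± 0.26 and -1.0 ± 0.13, adjusted p = 4.1e-05 and 6.67e-05), 2 of 6 against 27% of all genes. Sox7 was the 1 factor called higher, against 19.2% (adjusted p = 0.0307, a call lost without any 1 of the 4 libraries). It was below 1 TPM in both groups and passed the filter only through other groups.

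**Figure D2:**
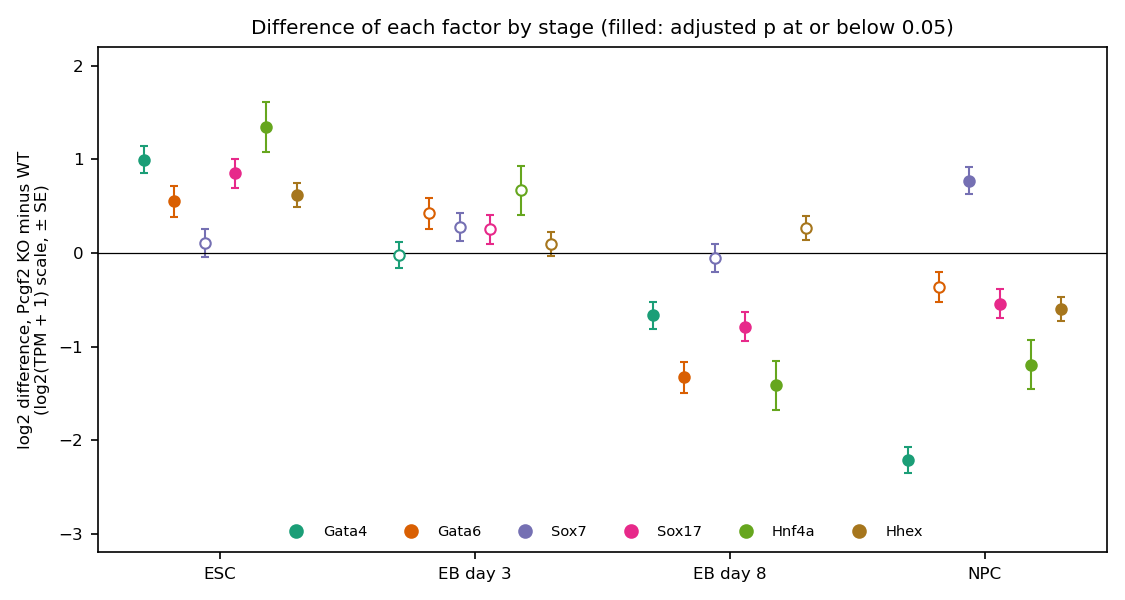
Log2 difference between Pcgf2 KO and WT for each factor at the 4 stages, on the log2(TPM + 1) scale with SE bars. Filled points passed an adjusted p of 0.05, and the called differences were above 0 in ESC, below 0 at EB day 8 and, in NPC, below 0 for 4 factors and above 0 for Sox7.

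By EB day 8, the knock-out had lower levels of 4 factors. Gata6 was at 26.9 and 24.8 TPM against 63.9 and 69.0 TPM in WT (-1.33 ± 0.17, adjusted p = 8.7e-05), and its mean was 38.9% of that in WT. Hnf4a was at 7.16 and 5.66 TPM against 19.0 and 18.3 TPM (-1.41 ± 0.26, adjusted p = 0.00138), and its mean was 34.4% of that in WT. Sox17 was at 27.4 and 26.5 TPM against 53.2 and 42.1 TPM (-0.79 ± 0.15, adjusted p = 0.00194). Gata4 was at 53.5 and 46.7 TPM against 77.7 and 82.2 TPM (-0.67 ± 0.14, adjusted p = 0.00317). Sox7, at 12.3 and 12.2 TPM against 12.5 and 13.0 TPM, and Hhex, at 5.59 and 5.49 TPM against 4.79 and 4.08 TPM, were not called (adjusted p = 0.828 and 0.123). The count of 4 of 6 lower stands against 17.1% of all genes, with 20.6% called higher, and the median was -0.73 for the factors and 0.04 for all genes. All 4 calls held without any single library, with adjusted p of at most 0.034.

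The knock-out EBs still raised every factor. From EB day 3 to EB day 8, all 6 rose in Pcgf2 KO cells, against 43% of all genes higher and 15.7% lower, with log2 differences from 1.32 for Hhex to 3.86 for Gata6. Of all calls, 73.3% were higher, and 50.6% or 49% under the scalings. The difference between knock-out and WT moved downward over this interval for Gata4 (-0.64 ± 0.20), Gata6 (-1.75 ± 0.23), Sox17 (-1.04 ± 0.22) and Hnf4a (-2.08 ± 0.37), with adjusted p = 0.0248, 0.000171, 0.00317 and 0.00115. These 4 of 6 stand against 12.6% of all genes called lower and 26.2% higher. The Gata4 call was lost without 5 of the 8 libraries (largest adjusted p = 0.0877), and higher genes made up 67.5% of all calls, or 47% and 55.3% under the scalings.

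The products of endoderm were lower in the same knock-out libraries. Of 20 visceral endoderm products, 19 were lower than in WT, with a median of -2.14, and their summed level was 724 and 740 TPM against 2875 and 3119.8 TPM. Apoa2, an apolipoprotein of high-density lipoprotein, was at 4.37 against 55.2 TPM, Afp, alpha-fetoprotein, at 5.69 against 56.8 TPM, and Apom at 17.5 against 134 TPM. Of 13 basement membrane and parietal genes, 12 were lower, among them Plat, tissue plasminogen activator (12.2 against 39.8 TPM), and Pth1r, a parathyroid hormone receptor (19.4 against 57.5 TPM). Other endoderm regulators were divided, with 6 lower and 3 higher of 13. Pdgfra, the receptor of the primitive endoderm, was at 17.7 against 52.4 TPM and Foxa2, a forkhead factor of endoderm, at 7.28 against 16.8 TPM, while the nuclear receptor gene Nr5a2 was at 5.06 against 1.44 TPM.

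Markers of other lineages differed in various directions at EB day 8. Endothelial markers had 3 higher and 2 lower of 12, with a median of 0.10 against 0.04 for all genes, and summed to 319 and 332 TPM in the knock-out against 274 and 285 TPM in WT. Cardiac markers had 4 higher and 4 lower, and summed to 130 and 139 TPM against 240 and 241 TPM. Naive pluripotency markers were higher for 7 of 10 and lower for none, with sums of 642 and 651 TPM against 197 and 220 TPM. None of the endothelial, cardiac or naive pluripotency markers was listed at 0 in any EB day 8 library. The part of these cells in the lower factor levels was not tested.

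**Figure D3:**
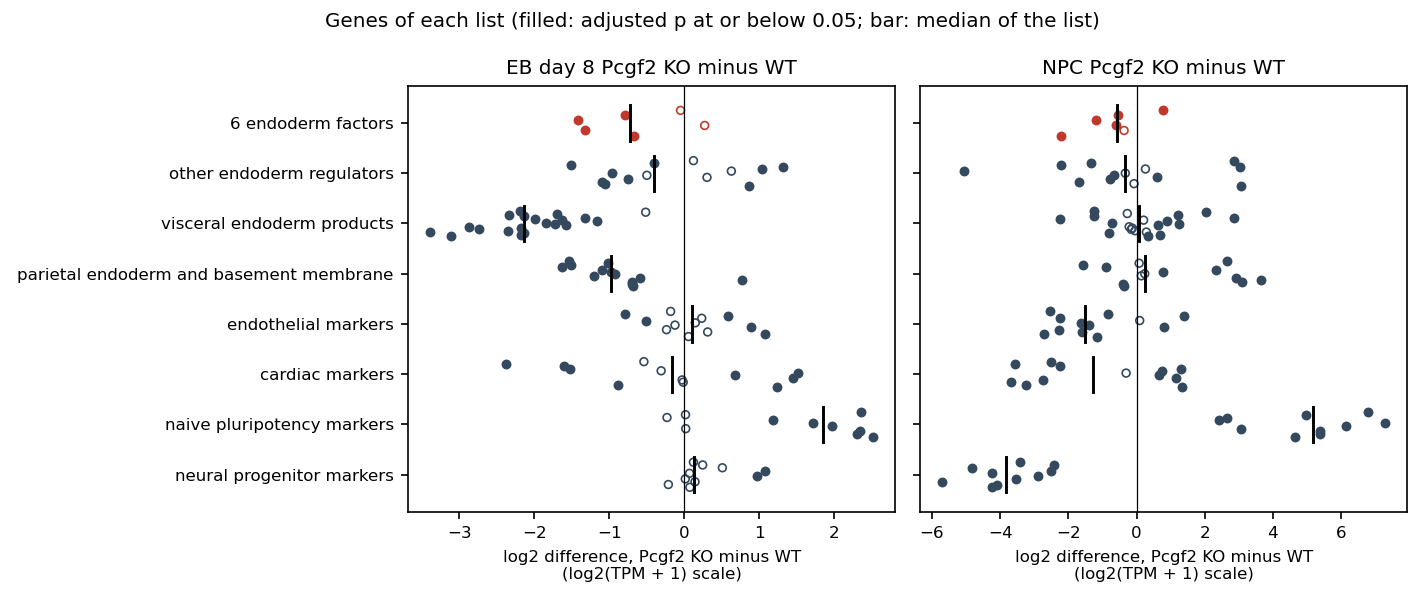
Log2 difference between Pcgf2 KO and WT for every tested gene of each list at EB day 8 and in NPC, with filled points for an adjusted p at or below 0.05 and a bar at the median of each list. At EB day 8 the medians were -0.73 for the factors and -2.14 for the visceral endoderm products, and in NPC the naive pluripotency markers lay to the right and the neural progenitor markers to the left.

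In NPC, the factors differed in opposite directions. Gata4 was at 15.2 and 14.9 TPM in Pcgf2 KO against 88.0 and 61 TPM in WT (-2.21 ± 0.14, adjusted p = 6.98e-08), with a mean 20.2% of that in WT. Gata6 was at 38.2 and 33.5 TPM against 54.8 and 39.2 TPM, just below the WT libraries, and was not called (-0.36 ± 0.17, adjusted p = 0.0725). Without NPC WT replicate 2 it was called (-0.60, adjusted p = 0.0107). Sox7 was higher, at 7.77 and 6.39 TPM against 4.53 and 3.01 TPM (0.77 ± 0.15, adjusted p = 0.000625). Sox17, its relative, was lower, at 8.68 and 8.52 TPM against 11.3 and 14.8 TPM (-0.54 ± 0.15, adjusted p = 0.00883), a call lost without NPC WT replicate 2 (adjusted p = 0.0942). Hnf4a was at 0.683 and 1.34 TPM against 5.23 and 2.32 TPM (-1.20 ± 0.26, adjusted p = 0.00172), and the difference was -0.74 without NPC WT replicate 1. Hhex was at 2.05 and 1.5 TPM against 3.52 and 2.86 TPM (-0.60 ± 0.13, adjusted p = 0.00145).

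Of the 6 factors in NPC, 4 were called lower and 1 higher, against 34.7% and 31.5% of all genes, a background in which most genes differed. The knock-out difference was lower in NPC than at EB day 8 for Gata4 (-1.54 ± 0.20, adjusted p = 4.9e-05) and Hhex (-0.87 ± 0.18, adjusted p = 0.00166), 2 of 6 against 30.6% of all genes. It was higher in NPC than at EB day 8 for Gata6 (0.96 ± 0.23, adjusted p = 0.00437) and Sox7 (0.82 ± 0.21, adjusted p = 0.00554), 2 of 6 against 25%. The Gata6 call was lost with a pseudocount of 0.1 (adjusted p = 0.0939), and no left-out library ended any of the 4. Within Pcgf2 KO cells, 5 factors were lower in NPC than at EB day 8, against 26.6% of all genes, Gata4 by 1.67 ± 0.14 on the log2 scale. Gata6 was higher in Pcgf2 KO NPC (0.45 ± 0.17, adjusted p = 0.0319), against 35.8%, but lost the call without 3 of the 4 libraries and under both scalings (largest adjusted p = 0.253).

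**Figure D4:**
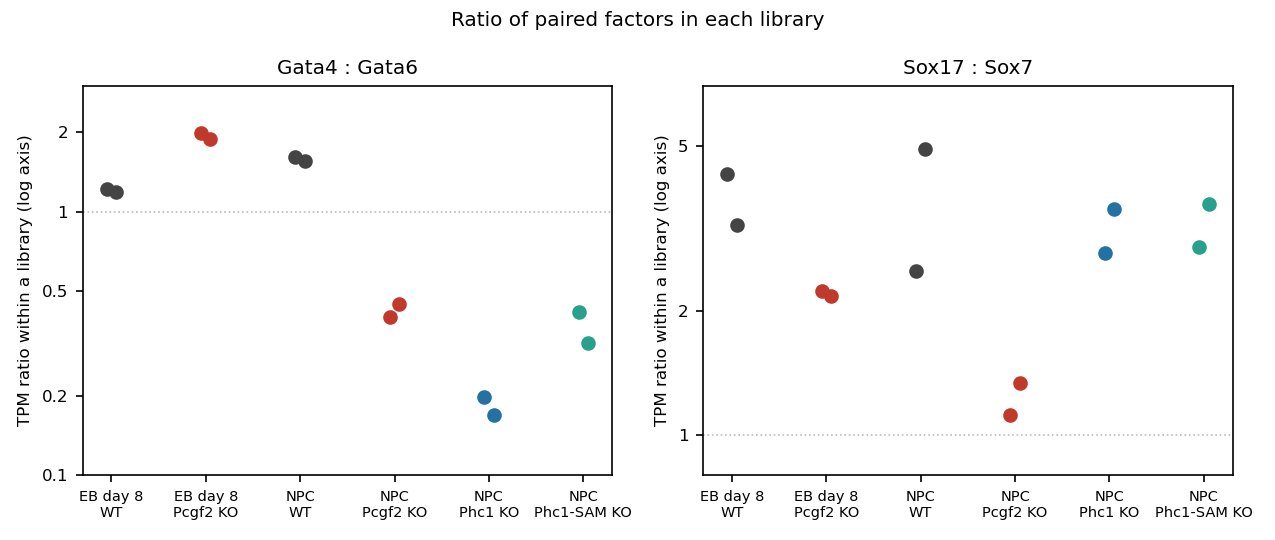
Ratio of Gata4 to Gata6 (left) and of Sox17 to Sox7 (right) in TPM within each library, on log axes, with both libraries of each group as points. The Gata4 to Gata6 ratio was above 1 in the 6 libraries of EB day 8 and WT NPC and below 1 in the 6 knock-out NPC libraries.

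The ratio of Gata4 to Gata6 within a library shows the divergence without any scaling between libraries. It was 1.22 and 1.19 in WT and 1.99 and 1.88 in Pcgf2 KO EBs at day 8. It was 1.61 and 1.56 in WT NPC but 0.397 and 0.444 in Pcgf2 KO NPC. The ratio of Sox17 to Sox7 was 4.27 and 3.23 in WT and 2.23 and 2.17 in Pcgf2 KO EBs at day 8. It was 2.5 and 4.92 in WT NPC and 1.12 and 1.33 in Pcgf2 KO NPC. WT and Pcgf2 KO thus did not overlap in this ratio at EB day 8 or in NPC. Such a ratio shows unequal change of its 2 genes and not which of them changed.

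Markers of the labelled cell type differed strongly between the same NPC libraries. All 10 neural progenitor markers were lower in Pcgf2 KO, with summed levels of 36.0 and 46.3 TPM against 528 and 677 TPM in WT, and none was listed at 0. Hes5, a Notch effector, was at 0.396 against 73.6 TPM and Pax6, a paired-box factor, at 1.23 against 63.2 TPM. All 10 naive pluripotency markers were higher, with sums of 1221 and 1305 TPM against 32.2 and 35.1 TPM, including Pou5f1 (329 against 1.14 TPM) and Nanog (213 against 2.02 TPM). Endothelial markers were lower for 9 of 12 and higher for 2, with sums of 145 and 165 TPM against 253 and 312 TPM. Cardiac markers were lower for 6 and higher for 5 of 12, with sums of 32.2 and 34.5 TPM against 123 and 160 TPM. Isl1, a factor of heart progenitors and motor neurons, was at 3.33 against 55.1 TPM. The part of these cells in the lower Gata4 level was not tested.

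Relatives and partners of the factors also diverged in NPC. Of 7 other GATA, GATA cofactor and SoxF genes, 2 were higher and 4 lower in Pcgf2 KO. Gata2, known in blood and trophoblast, was at 502 against 29.5 TPM (4.05 ± 0.22, adjusted p = 1.76e-08). Zfpm2, the cofactor that binds Gata4 in the heart, was at 0.221 against 11.0 TPM, and Sox18, the SoxF factor of endothelium, at 1.60 against 17.7 TPM. Visceral endoderm products had 8 higher and 5 lower of 20, with summed levels of 110 and 116 TPM against 86.4 and 96.5 TPM. The parietal list had 6 higher and 4 lower of 13, led by the keratins Krt19 (898 against 70.2 TPM), Krt18 (1309 against 151 TPM) and Krt8 (997 against 132 TPM), which are simple epithelial keratins found in trophoblast as well. Among the other endoderm regulators 4 were higher and 6 lower of 13, with Lhx1, a LIM homeobox factor that spinal neurons also use, at 0.755 against 57.5 TPM and Eomes at 8.66 against 0.163 TPM. Of the 6 protein-coding genes between Gata4 and Sox7, Tdh, a threonine dehydrogenase gene typical of stem cells, was at 44.1 and 41.5 TPM in Pcgf2 KO NPC and at 0.973 and 1.55 TPM in WT NPC, and was named after its values were seen.

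Phc1 KO and Phc1-SAM KO cells were not compared with WT, and their levels are set beside the first table without a test. In ESC, Gata4 was at 5.34 and 5.70 TPM in Phc1 KO and at 4.93 and 4.45 TPM in Phc1-SAM KO. Hhex was at 3.43 and 3.36 TPM and at 3.39 and 3.52 TPM, and Hnf4a at 2.67 and 2.30 TPM and at 2.62 and 3.02 TPM. Sox17 (0.458 to 0.541 TPM), Sox7 (0.215 to 0.523 TPM) and Gata6 (0.192 to 0.777 TPM) were below 1 TPM in all 4 ESC libraries. Gata6, which passed the filter only through NPC, was the 1 factor called between both lines in ESC. It was higher in Phc1-SAM KO (0.548 and 0.777 against 0.192 and 0.268 TPM, 0.43 ± 0.12, adjusted p = 0.0221), against 12.8% of all genes higher and 30.9% lower. That call was lost without Phc1 KO replicate 1 or Phc1-SAM KO replicate 2 (largest adjusted p = 0.0981), and 29.4% of all calls were higher, against 56.7% and 58.6% under the scalings.

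From ESC to NPC, both Phc1 lines raised Gata4, Gata6, Sox7 and Sox17 and lowered Hnf4a and Hhex. In both lines Eif2s3y was higher in NPC than in ESC, as given above, and its part was not tested. Gata6 showed the largest rise, to 55.8 and 61.7 TPM in Phc1 KO (5.60 ± 0.12, adjusted p = 1.68e-07) and to 46.9 and 53.0 TPM in Phc1-SAM KO (4.94 ± 0.12, adjusted p = 2.05e-07). Gata4 rose to 11.1 and 10.4 TPM (0.85 ± 0.11) and to 19.5 and 16.8 TPM (1.75 ± 0.11). Hnf4a fell to 0.451 and 0.528 TPM (-1.22 ± 0.15) and to 1.48 and 2.04 TPM (-0.48 ± 0.15, adjusted p = 0.0299, lost without 3 of 4 libraries, largest adjusted p = 0.144). The 4 factors called higher stand against 35% of all genes in Phc1 KO and 43.8% in Phc1-SAM KO, and the 2 called lower against 27.8% and 23.8%. Pcgf2 KO cells gave the same calls from ESC to NPC, 4 higher against 47.5% of all genes and 2 lower against 19.3%, with Hnf4a at -2.06 ± 0.26 and Hhex at -0.92 ± 0.13. Higher genes were 64.8% of the calls in Phc1-SAM KO and 71.1% in Pcgf2 KO, and 49% to 50.4% and 48% to 50.4% under the scalings. Gata4 to Gata6 ratios were 0.198 and 0.169 in Phc1 KO NPC and 0.415 and 0.317 in Phc1-SAM KO NPC, below those of WT NPC. Sox17 to Sox7 ratios were 2.76 and 3.53 in Phc1 KO NPC and 2.84 and 3.63 in Phc1-SAM KO NPC, between the values of both WT NPC libraries.

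Between both Phc1 lines in NPC, 4 factors were higher in Phc1-SAM KO, against 1.52% of all genes called higher and 2.52% lower. Sox17 was at 12.7 and 15.8 TPM against 6.03 and 7.43 TPM in Phc1 KO (0.98 ± 0.15, adjusted p = 0.0226). Hnf4a was at 1.48 and 2.04 against 0.451 and 0.528 TPM (0.88 ± 0.15, adjusted p = 0.0337). Sox7 was at 4.48 and 4.36 against 2.19 and 2.10 TPM (0.79 ± 0.15, adjusted p = 0.0398), and Gata4 at 19.5 and 16.8 against 11.1 and 10.4 TPM (0.70 ± 0.11, adjusted p = 0.0207). Gata6 (-0.23 ± 0.12) and Hhex (0.36 ± 0.11) were not called (adjusted p = 0.311 and 0.13). Each of the 4 calls was lost when any 1 of the 4 NPC libraries was left out (adjusted p = 0.0597 to 0.217), which took the count of calls to 0 of 6. The calls over all genes were 37.7% higher, against 55.5% and 52% under the scalings.

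Endoderm products went the same way between both Phc1 lines in NPC. The list calls were not repeated with a library left out, which had ended the factor calls. Of 17 tested visceral endoderm products, 13 were higher in Phc1-SAM KO and none lower, against 1.52% and 2.52% of all genes. Their median was 1.17 against -0.04 for all genes. Their sums were 163 and 165 TPM against 69.0 and 74.0 TPM. Apoa1 was at 10.0 against 0.553 TPM, Cubn, the endocytic receptor cubilin, at 18.9 against 4.78 TPM, and Rbp4, the retinol carrier, at 12.5 against 3.08 TPM. Of 13 parietal and basement membrane genes, 10 were higher and none lower, with Lama1 at 42.6 against 17.9 TPM. Of 12 tested other endoderm regulators, 1 was higher, Foxa2 (7.26 against 3.06 TPM), 1 was lower and 10 were not called. Naive pluripotency markers were lower for 6 of 10, with sums of 1067 and 1081 TPM against 1318 and 1327 TPM, while none of 12 cardiac markers was called and 1 of 10 endothelial markers was lower. The part of the pluripotent cells in these differences was not tested.

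Across the 8 groups of the first table, the 6 factors fell into 2 kinds of course. Group means of Gata4, Gata6, Sox7 and Sox17 correlated with each other at Pearson r of 0.894 to 0.971, and those of Hnf4a and Hhex at 0.909, while pairs across both sets had r of 0.451 to 0.626. These are descriptions over 8 groups that share libraries and scaling. The genes whose means were most like a factor's, of 12415 compared, were Mapk8ip3, Rsph3b and Rgl1 for Gata4 (r = 0.994, 0.993 and 0.991), and Plpp5, Slc35b3 and Cpm for Gata6 (0.995, 0.989 and 0.987). For Sox7 they were Pmp22, Adm and Gem (0.994, 0.985 and 0.984), and for Sox17 Man1a and Zfp968 (0.995 and 0.994). Hnf4a was most like Atraid, Ppic and Nrm (0.959, 0.934 and 0.931), and Hhex most like Rabepk, Ecscr and Cd302 (0.946, 0.938 and 0.933).

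The order of the 8 groups by level set the factors apart as well. Gata4, Gata6, Sox7, Sox17 and Hnf4a were highest in WT EBs at day 8, and Hhex in Pcgf2 KO EBs at day 8 (5.59 and 5.49 TPM), next to WT at the same day. For Gata4, WT EB day 8 and WT NPC overlapped in the order, as did WT and Pcgf2 KO at EB day 3. For Hnf4a, Pcgf2 KO ESC came next after WT EB day 8 (8.49 and 6.18 TPM), overlapping Pcgf2 KO EB day 8 (7.16 and 5.66 TPM), and WT NPC overlapped WT ESC. Neighbours that overlapped also were Sox17 in Pcgf2 KO EB day 3, Pcgf2 KO ESC and WT EB day 3, Hnf4a and Hhex in Pcgf2 KO NPC and Pcgf2 KO EB day 3, and Hhex in WT EB day 8 and Pcgf2 KO ESC. The lowest group was WT ESC for Gata4, Gata6, Sox7 and Sox17 and WT EB day 3 for Hnf4a and Hhex.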

How the data were processed

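The authors deposited 2 tables of TPM (length-corrected transcript abundance) per gene, one column per RNA-seq library, for 16 and 8 libraries of total RNA. Kallisto and mm10 are named in the submitters' processing notes, without their roles or versions. The deposited TPM carry no read counts, so depth and counting error are unknown, and no count test could be used. A further 4 sample columns of the second table are not used here.

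Values were transformed to log2(TPM + 1). Genes at 1 TPM or more in at least 2 libraries of a table were kept (17938 and 15775), and each table was fitted alone with limma 3.58.1 in R 4.3.3 (1 mean per group, eBayes with trend). Differences are given with their SE and Benjamini-Hochberg adjusted p over all genes of the comparison, called at 0.05, for 15 comparisons in the first table and 4 in the second. The fit was tested on simulated data, with changes planted only in genes at 5 TPM or more in every library of a table. No factor met that condition in either table, so the simulation does not cover calls at their low levels. Levels from both tables are set side by side without a test. Alternatives were a pseudocount of 0.1, no filter, a filter of 5 TPM, median-of-ratios scaling, quantile normalization, a fit on only the groups compared, a replicate block and leaving out each library. From each list, at most 3 called genes with the largest differences among those at 5 TPM or more in a group were named. Likeness to a factor was Pearson's r of group means over 8 groups, among genes at 5 TPM or more in a group. 1 gene named by that rule for Sox17 is not reported here. The members and lists were chosen with earlier results of these data known.

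Replicates of a group correlated at 0.988 to 0.992 in the first table and 0.986 to 0.991 in the second. Columns of the second table sum to 0.976 to 0.98 of the nominal TPM total. Figures were drawn with matplotlib 3.10.9.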

Additional observations from a re-analysis of the deposited data

Results flagged for a closer look

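The difference between Pcgf2 KO and WT itself differed between the groups compared for 11 pairs of factor and comparison. Each was called by a contrast in the limma fit on the log2(TPM + 1) scale with p adjusted over all genes.

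From ESC to EB day 3, the knock-out difference moved by -1.02 for Gata4, -0.60 for Sox17 and -0.52 for Hhex. From EB day 3 to EB day 8, it moved by -0.64 for Gata4, -1.75 for Gata6, -1.04 for Sox17 and -2.08 for Hnf4a. In NPC against EB day 8, which are separate cultures, it differed by -1.54 for Gata4 and -0.87 for Hhex, and by 0.96 for Gata6 and 0.82 for Sox7. Gata4 was called in all 3 comparisons and always downward. As given above, its call from EB day 3 to EB day 8 did not hold without each library. Nor did the Sox17 and Hhex calls from ESC to EB day 3, and the Gata6 call in NPC against EB day 8 was lost with a pseudocount of 0.1. Gata6 was called downward from EB day 3 to EB day 8 and upward in NPC against EB day 8. The WT libraries at EB day 8 stood apart from the other WT libraries in the Y-linked gene Eif2s3y (50.4 to 64.7 TPM against 0.422 to 2.78 TPM), and its part in these differences was not tested.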

How the results depend on the processing

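The lower Gata4, Gata6, Sox17 and Hnf4a at EB day 8 in Pcgf2 KO were called under all alternatives run and without each library. Under the alternatives that kept all libraries, 718 single-factor values kept direction and side of the threshold, 15 gained a call, 28 lost one and 9 changed sign, and without a library 458 kept both, 5 gained, 57 lost and 8 changed sign. The count of factors called moved as follows, from the value with the filter and pseudocount of the text. For Pcgf2 KO against WT at EB day 3 it went from 0 to 3 with a pseudocount of 0.1, to 2 with a filter of 5 TPM or with median-of-ratios scaling, and to 0 to 1 without a library. In ESC it went from 5 to 3 under quantile normalization or a fit on only the groups compared, where low factors fell below the filter. For the change of the knock-out difference from ESC to EB day 3 it went from 3 to 1 with no filter or either scaling, and to 1 to 2 without a library. For WT NPC against EB day 8 it ranged from 3 to 6 without a library. The ESC to NPC counts of both Phc1 lines went from 6 to 3 with a filter of 5 TPM, which tests fewer factors. Between Phc1-SAM KO and Phc1 KO it went, in ESC, from 1 to 3 under quantile normalization and to 0 with only the groups compared (0 to 1 without a library), and in NPC from 4 to 1 with no filter or only the groups compared, to 2 with a filter of 5 TPM, and to 0 without any library.

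Some uncalled differences changed sign. With a pseudocount of 0.1 the change of the knock-out difference for Hnf4a became 0.28 (ESC to EB day 3) and -0.22 (EB day 8 to NPC). With median-of-ratios scaling, Hhex in WT NPC against ESC became -0.19 and Gata4 in EB day 3 Pcgf2 KO against WT 0.11. Under quantile normalization, WT NPC against ESC became -0.28 for Hnf4a and -0.46 for Hhex, EB day 3 Pcgf2 KO against WT 0.022 for Gata4 and -0.024 for Hhex, and ESC Phc1-SAM KO against Phc1 KO 0.24 for Gata4. Without EB day 3 WT replicate 1, Gata4 at EB day 3 became 0.051 and the Gata6 change from ESC to EB day 3 0.082 (lowest values without a library -0.0949 and -0.34). The Hnf4a change from EB day 8 to NPC became -0.24 without NPC WT replicate 2, and was also below 0 without NPC Pcgf2 KO replicate 2, and Gata4 in WT NPC against EB day 8 became 0.14 without NPC WT replicate 2 (other extremes 0.67 and -0.39). In ESC Phc1-SAM KO against Phc1 KO, Sox17 became -0.034 without Phc1 KO replicate 1 and was also below 0 without Phc1-SAM KO replicate 2, where Hhex became -8.53e-05 (highest values 0.0459 and 0.0428). The causes were not tested.

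Counts over all genes also moved. Lower genes in ESC Pcgf2 KO went from 1979 to 3675 (median-of-ratios), 3259 (quantile) and 1213 (only the groups compared), and higher genes from 4473 to 2885 in the last. In NPC Phc1-SAM KO, 240 higher and 397 lower genes became 34 to 66 and 31 to 87 without a library, and lower genes 253 and 200 after median-of-ratios scaling or in the fit of only the groups compared. Same-numbered libraries did not deviate together (correlations from -0.18 to 0.13 over 28 pairs of groups and from -0.032 to 0.021 over 6), so the numbers do not pair the samples. With the replicate block, 1 factor was called at EB day 3 and 2 between both Phc1 lines in NPC, where 132 genes were higher and 170 lower. Depth is unknown, so factors under 1 TPM carry an unknown counting error.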
